A study of Mus with 6 samples.

Results

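Genes that encode chromatin modifiers and remodellers were examined in RNA sequencing of cardiac microvascular endothelial cells. They were chosen by gene symbol, as all genes whose symbols begin with the family names of lysine methyltransferases (Kmt2, Kmt5, Setd, Ehmt, Nsd, Ezh), demethylases (Kdm), acetyltransferases (Kat, Ep300, Crebbp), deacetylases (Hdac, Sirt), DNA methyltransferases (Dnmt), DNA demethylases (Tet), remodellers (Chd, Smarc, Arid1, Arid2, Ep400) or bromodomain and other ARID proteins (Brd, Arid3 to Arid5). The rule found 121 of the 20893 genes listed, and 106 of them reached an FPKM (fragments mapped to a gene, scaled by transcript length and library size) of at least 1 in at least 3 libraries and were tested. There were 39 writers (34 tested), 39 erasers (36 tested), 27 remodellers (24 tested) and 16 readers and ARID factors (12 tested). The classes follow the family names, so a member need not have the activity of its class. A few symbols matched by name only: Dnmt3aos is a non-coding gene within the Dnmt3a locus, Brd3os and Brd8dc are genes of their own beside Brd3 and Brd8, and Ezhip is an inhibitor of the Polycomb methyltransferase.

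Histone tails carry acetyl and methyl groups that writers add, erasers remove and reader domains bind. Remodellers use ATP to slide, eject or exchange nucleosomes, and DNA methyltransferases and TET dioxygenases add and oxidise methyl groups on cytosine. In endothelium, class IIa deacetylases such as Hdac7, the deacetylase Sirt1 and the remodeller ATPase Smarca4 are known for roles in vessel growth and vessel integrity.

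The study compared 3 Ccl28 knockout (KO) libraries with 3 wild-type (WT) libraries, with replicate numbers 2, 3 and 4 in each group. All came from CD45-CD31+ cells isolated with magnetic beads from mouse hearts after ligation of the left coronary artery, so both groups carried the injury. Ccl28 encodes a chemokine that binds the receptor Ccr10. No strain, age, sex or time after surgery is given in the sources used here. Ccl28 itself had 0 reads in each KO library, against 16, 11 and 24 reads in WT replicates 2, 3 and 4 (exact two-sided permutation p = 0.1, the smallest that 3 against 3 allows). The genotype field of KO replicates 3 and 4 reads Ccl29-KO and Ccl30-KO, and the titles (Ccl28-KO) were followed. Reads assigned to genes numbered 36004457 to 37780513 per KO library and 39104282 to 40500067 per WT library. A tested chromatin gene had between 97 and 18700 reads in a library.

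Chromatin genes were mostly lower in KO cells. With limma on log2(FPKM + 1), 61 of the 106 tested members were lower in KO and 7 were higher at a Benjamini-Hochberg adjusted p under 0.05. Over all 10806 tested genes, 25.8% were called lower and 18.3% higher. The count of higher members was 1, 4 and 3 without KO replicates 2, 3 and 4, and 3 and 1 without WT replicates 3 and 4. The shares of all genes called in those fits are not given here. Of the lower members, 59 had an FPKM of at least 1 in at least 1 KO library; the other 2, Kmt2c and Hdac9, entered the test through WT alone, so their calls are no support. The median log2 fold change of the members was -0.31, against -0.03 for all tested genes, with a range of -0.94 (Kat6a) to 0.36 (Hdac3). The 3 KO libraries all lay below the 3 WT libraries for 67 members and all above them for 10, against 31.9% and 22.8% of all tested genes. In the authors' deposited table, 61 of the 119 members it lists had a q-value under 0.05 with a lower level in KO and 8 with a higher level, against 15.7% and 13.6% of its 17686 genes. In RNA from a cell population, fewer cells of a type and less RNA per cell cannot be told apart.

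Fold changes ran with transcript length in the whole table, and chromatin genes are long. The median length behind the FPKM values was 6314 nt over the tested members (1601 to 25453 nt), against 3429 nt over all tested genes. The rank correlation (Spearman's rho) of log2 fold change with length was -0.80 over the 106 members and -0.72 over the 10806 tested genes; genes share libraries, so these are descriptions of the table. Each library had its own slope of log2 level on log2 length. Over all tested genes it was -0.10, -0.09 and -0.15 per doubling of length in KO replicates 2, 3 and 4, and 0.10, 0.11 and 0.13 in WT replicates 2, 3 and 4. The signs separated the groups, so genotype and the length slope of a library cannot be told apart in these 6 libraries. A second fit therefore took a smooth curve of level on length out of each library before the same test, and values from the first fit are called those as deposited. With that trend removed, 18 members were lower in KO (17 without Kmt2c) and 4 were higher, against 9.42% and 9.28% of all tested genes. The members' median log2 fold change was then -0.06. Members with a value below 0 numbered 61, against 78 as deposited. These counts were not stable: without KO replicate 2, KO replicate 4 or WT replicate 4 there were 8, 11 and 4 lower members, and without KO replicate 2, KO replicate 4, WT replicate 2 or WT replicate 4 there were 1, 0, 1 and 0 higher ones (9, 6, 10 and 4 in limma at an unadjusted p under 0.05). Without the filter on low values 42 of 119 were lower, and with a filter at an FPKM of 5, which left 70 members, 8 were. The shares of all genes called under these settings, or with a library left out, are not given here. These counts therefore show how far the calls move and are not set against a background.

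**Figure D1:**
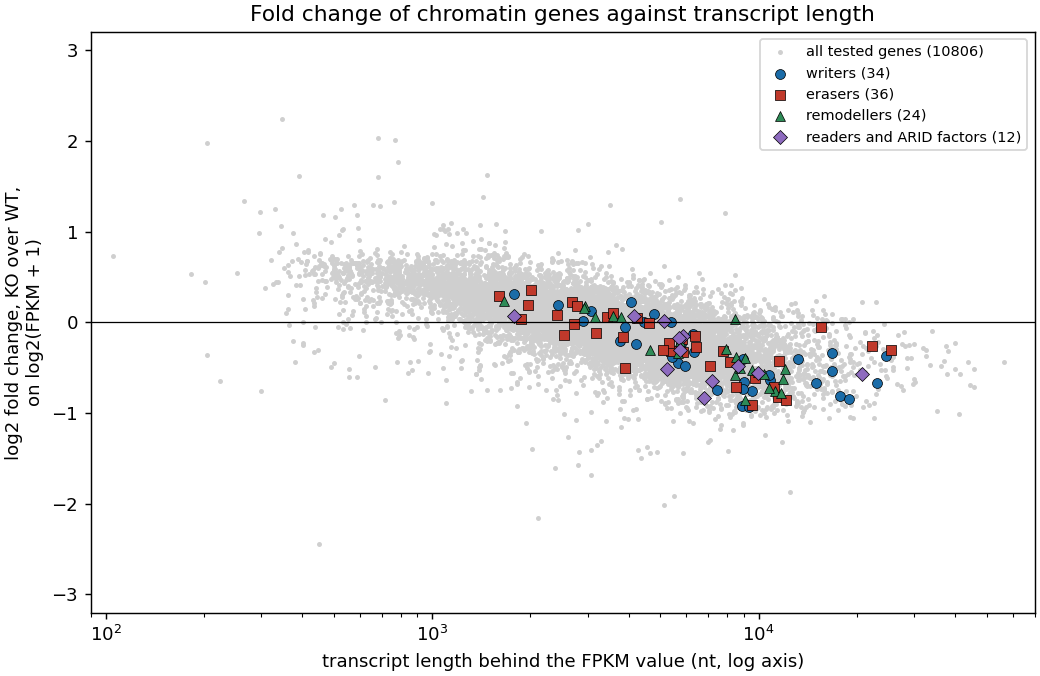
Log2 fold change (KO over WT, on log2(FPKM + 1)) of every tested gene against the transcript length behind its FPKM value on a log axis, with the 4 classes of chromatin genes in colour. Fold changes decline with length in all 10806 genes and in the 106 members, which sit mostly among long transcripts and below 0; the longest, Hdac9 at 25453 nt, had a log2 fold change of -0.31.

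Genes of the lysine methyltransferase families held many of the lower members. Of 22 tested, 15 were lower in KO, against 25.8% of all tested genes, with a median log2 fold change of -0.46. With the length trend removed 5 were lower, against 9.42%. Both counts include Kmt2c. Kmt2a, a trithorax-group enzyme that methylates histone H3 at promoters, had an FPKM of 1.79, 1.82 and 1.76 in KO replicates 2, 3 and 4, against 3.45, 3.78 and 4.56 in WT replicates 2, 3 and 4. The groups were well apart, which is also a condition in part of the rule by which genes were named. The mean of Kmt2a was 2.19-fold lower in KO (log2 fold change -0.81, adjusted p = 0.000624). Kmt2c, which acts with Kmt2d at enhancers, had an FPKM of 0.844, 0.917 and 0.993 in KO, against 2.3, 2.28 and 2.74 in WT. No KO library reached an FPKM of 1 for Kmt2c, which therefore entered the test through its WT level. Its paralog Kmt2d had an FPKM of 2.24, 2.74 and 2.78 in KO, against 3.84, 5.13 and 5.23 in WT (log2 fold change -0.67, adjusted p = 0.00226). With the trend removed, Kmt2a stayed past the threshold (-0.35, adjusted p = 0.0349), and Kmt2d (-0.19, adjusted p = 0.315) and Kmt2b (-0.01, adjusted p = 0.94) did not.

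Among the other genes of these families, Setd7, Setd2 and Kmt2e were lower in both fits. Setd7, a mono-methyltransferase of histone H3 and of other proteins, had an FPKM of 4.14, 4.81 and 3.78 in KO, against 8.12, 7.22 and 7.89 in WT. Its mean was 1.82-fold lower in KO (log2 fold change -0.74, adjusted p = 0.000671; -0.40, adjusted p = 0.0148 with the trend removed). Setd2, the enzyme that trimethylates histone H3 along transcribed gene bodies, had an FPKM of 5.4, 6.49 and 4.61 in KO, against 10.2, 8.75 and 10.4 in WT. Nsd1, which dimethylates histone H3 over broad domains, was 1.71-fold lower in KO (log2 fold change -0.67, adjusted p = 0.000593), and its difference of -0.22 with the trend removed missed the threshold (adjusted p = 0.0618). The Polycomb enzymes did not pass in either fit. Ezh1 had an FPKM of 24.9, 21.2 and 20.3 in KO, against 24.1, 27.9 and 26.6 in WT (adjusted p = 0.064), and Ezh2 had 2.05, 2.23 and 2.44 in KO, against 2.54, 1.74 and 1.9 in WT (adjusted p = 0.562). The KO and WT libraries overlapped for both genes, and Ezh1 was the more abundant of the pair in every library.

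Ehmt1 and Ehmt2 form a heterodimer that dimethylates histone H3 in silent chromatin. Their transcripts are of like length (5666 and 5376 nt), and their values differed. Ehmt1 had an FPKM of 8.21, 7.9 and 7.33 in KO, against 10.7, 11.4 and 10.9 in WT (log2 fold change -0.45, adjusted p = 0.00205; -0.20, adjusted p = 0.0948 with the trend removed). Ehmt2 had 28.5, 28.7 and 30.6 in KO, against 27.3, 31.7 and 28.8 in WT (log2 fold change 0.00, adjusted p = 0.998). The difference between the pair was not tested, and both were named after their values were seen.

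Acetyltransferases had calls in both directions. Of 9 tested, 5 were lower and 2 were higher in KO (median log2 fold change -0.20), against 25.8% and 18.3% of all tested genes. With the trend removed 2 were lower and 1 was higher, against 9.42% and 9.28%. The counts of higher acetyltransferases were thus near the background. Ep300, a coactivator that acetylates histones at enhancers and promoters, spans positions 81586209 to 81652077 of chromosome 15 (GRCm38) and had an FPKM of 4.19, 4.45 and 4.23 in KO, against 8.87, 8.61 and 9.7 in WT. Its mean was 2.11-fold lower in KO, with a log2 fold change of -0.93 (SE 0.08, adjusted p = 0.000266) and of -0.54 with the trend removed (adjusted p = 0.00392). Kat6a, the catalytic subunit of the MOZ complex (chromosome 8, 22859442 to 22943259), had an FPKM of 5.91, 5.85 and 4.54 in KO, against 11.1, 10.3 and 12.4 in WT. It was 2.08-fold lower, with a log2 fold change of -0.94 (SE 0.11, adjusted p = 0.000519) and of -0.54 with the trend removed (adjusted p = 0.00656). Crebbp, the paralog of Ep300, had an FPKM of 2.99, 3.19 and 3.04 in KO, against 5.05, 5.43 and 5.56 in WT, and lost its call with the trend removed (-0.21, adjusted p = 0.0983). For Ep300, Kat6a and Crebbp no KO library reached the lowest WT library, which is also a condition in part of the rule by which genes were named.

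Kat5, the catalytic subunit of the Tip60 complex, moved the other way. It had an FPKM of 12.1, 11.3 and 11.7 in KO, against 9.09, 10.4 and 10.1 in WT, a 1.19-fold higher mean (log2 fold change 0.23, adjusted p = 0.0456). Kat5 was the member called higher in both fits (0.35, adjusted p = 0.0205 with the trend removed). The first call failed without KO replicate 2, KO replicate 3, KO replicate 4, WT replicate 2 or WT replicate 4 (adjusted p = 0.136, 0.0639, 0.0901, 0.129 and 0.094), and the second without KO replicate 2, KO replicate 4, WT replicate 2 or WT replicate 4 (adjusted p = 0.0644, 0.0663, 0.0501 and 0.0698). Kat8, the MOF acetyltransferase of histone H4, had an FPKM of 14.5, 12.1 and 14.6 in KO, against 10.8, 10.7 and 11 in WT (log2 fold change 0.31, adjusted p = 0.019). Its call failed without KO replicate 2, KO replicate 4 or WT replicate 4 (adjusted p = 0.0684, 0.0662 and 0.0512) and with the trend removed (0.10, adjusted p = 0.385). Kat2a and Kat2b are the alternative acetyltransferases of the SAGA and ATAC complexes. Kat2a had an FPKM of 17.9, 18 and 17 in KO, against 19.4, 16.2 and 17.1 in WT (adjusted p = 0.939), while Kat2b had 5.81, 4.7 and 4.15 in KO, against 6.75, 6.14 and 7.05 in WT (log2 fold change -0.39, adjusted p = 0.0214; -0.15, adjusted p = 0.313 with the trend removed). The Kat2b call failed without KO replicate 3, KO replicate 4, WT replicate 2 or WT replicate 4 (adjusted p = 0.0523, 0.0736, 0.053 and 0.0779).

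Of 3 tested DNA methyltransferases, 2 were lower in KO as deposited (median log2 fold change -0.33), against 25.8% of all tested genes. Dnmt1, which copies methylation after replication, had an FPKM of 15.9, 16.8 and 14.4 in KO, against 21.2, 18.5 and 20.1 in WT (log2 fold change -0.33, adjusted p = 0.0127). Dnmt3a, a methyltransferase of unmethylated sites, had an FPKM of 1.02, 0.913 and 1.12 in KO, against 1.66, 1.57 and 1.57 in WT (log2 fold change -0.37, adjusted p = 0.0139). With the trend removed their values were -0.04 (adjusted p = 0.746) and 0.12 (adjusted p = 0.446), and the sign of Dnmt3a turned. Dnmt3b, the other methyltransferase of unmethylated sites, had an FPKM of 1.19, 0.902 and 1.16 in KO, against 1.27, 1.25 and 1.87 in WT, and did not pass (-0.23, adjusted p = 0.157). The length behind Dnmt3a was 24591 nt, and the non-coding gene Dnmt3aos lies within the Dnmt3a locus; whether the counting used strand is not given in the sources used here.

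The TET dioxygenases, which start active demethylation of DNA, were lower as a pair. Tet3 had an FPKM of 3.23, 3.19 and 2.87 in KO, against 6.19, 6.03 and 7.03 in WT, a 2.07-fold lower mean. Its log2 fold change was -0.86 (SE 0.09, adjusted p = 0.000456), and -0.42 with the trend removed (adjusted p = 0.00941). Tet2 had an FPKM of 1.17, 1.1 and 0.821 in KO, against 1.93, 2.08 and 2.31 in WT (log2 fold change -0.61, adjusted p = 0.00208), and missed the threshold with the trend removed (-0.21, adjusted p = 0.165). Tet1 was below the filter, with an FPKM of 0.076 to 0.18 in KO and of 0.204 to 0.254 in WT.

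**Figure D2:**
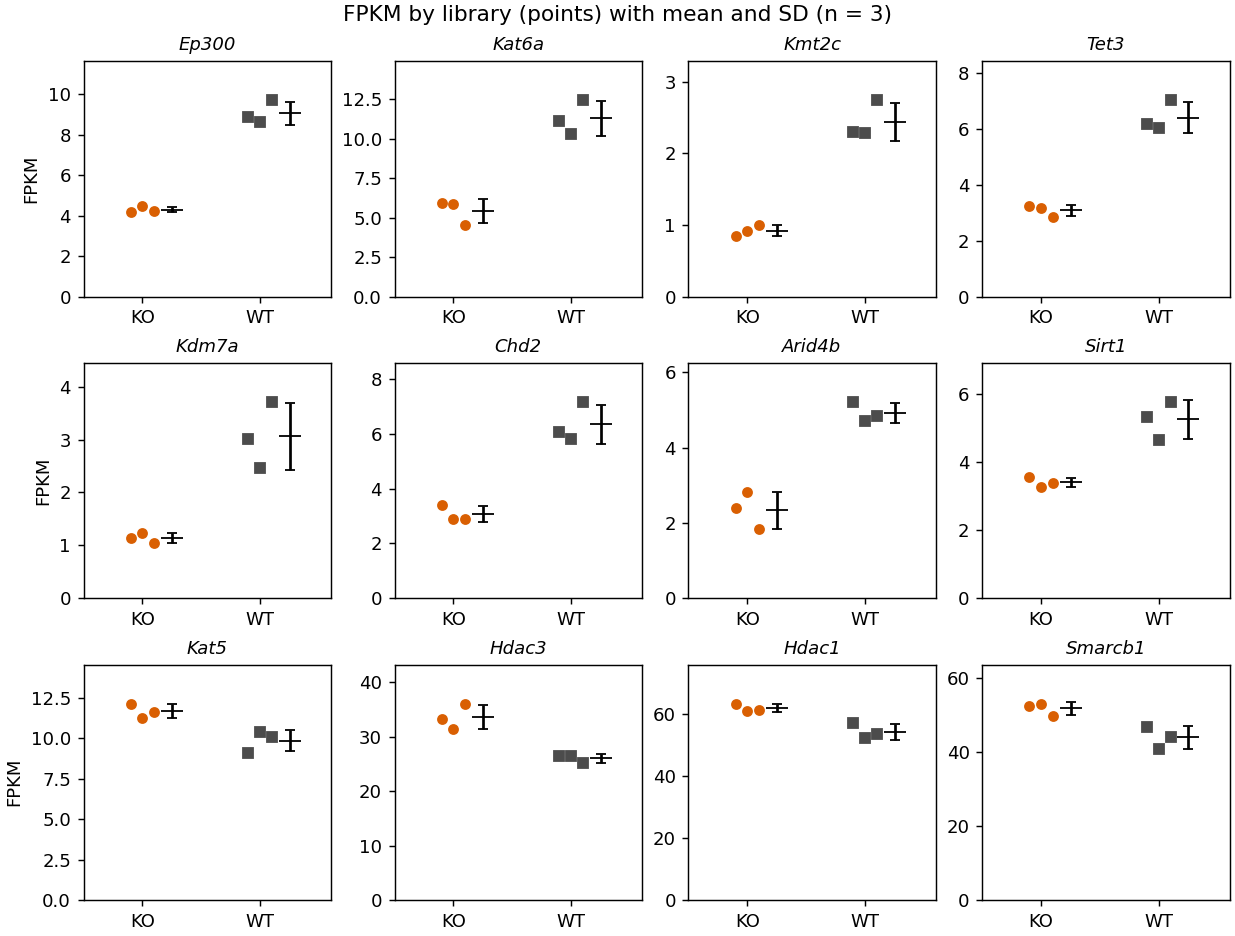
FPKM in each library (points) for 12 chromatin genes, KO on the left and WT on the right of each panel, with the mean and SD (n = 3) as bars; each vertical axis starts at 0. Ep300, Kat6a, Kmt2c, Tet3, Kdm7a, Chd2, Arid4b and Sirt1 lie lower in the 3 KO libraries, and Kat5, Hdac3, Hdac1 and Smarcb1 lie higher. All 12 met a part of the naming rule that asked for no overlap between the groups, so the separation in each panel is no added support.

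Histone demethylases followed the methyltransferases. Of 17 tested, 11 were lower in KO (median log2 fold change -0.32), against 25.8% of all tested genes. With the trend removed 3 were lower, against 9.42%. Kdm7a, which removes repressive methyl groups from histone H3, had an FPKM of 1.13, 1.24 and 1.05 in KO, against 3.01, 2.46 and 3.71 in WT. Its mean was 2.69-fold lower in KO (log2 fold change -0.91, SE 0.12, adjusted p = 0.000699), the widest ratio of mean FPKM among the 106 tested members, and it was -0.51 with the trend removed (adjusted p = 0.0149). Kdm5a, which erases the methyl mark of active promoters, had an FPKM of 1.76, 1.76 and 1.5 in KO, against 4.07, 3.07 and 4.06 in WT, and Kdm2a, a demethylase bound to CpG islands, had 9.17, 9.99 and 9.17 in KO, against 15.4, 15.9 and 16.9 in WT. Both passed in each fit (Kdm5a -0.82, adjusted p = 0.000744, and -0.39, adjusted p = 0.026; Kdm2a -0.71, adjusted p = 0.000456, and -0.33, adjusted p = 0.0142).

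Kdm6a and Kdm6b remove the methyl mark that Polycomb sets. Kdm6b had an FPKM of 8.25, 8 and 7.9 in KO, against 12.4, 15.3 and 14 in WT (log2 fold change -0.72, adjusted p = 0.000549; -0.29, adjusted p = 0.0597 with the trend removed). Kdm6a had 2.29, 2.34 and 2.26 in KO, against 3.19, 2.99 and 3.17 in WT (log2 fold change -0.32, adjusted p = 0.0162). Its call failed without WT replicate 4 (adjusted p = 0.0584), and its value was 0.04 with the trend removed (adjusted p = 0.773). Kdm1a, the LSD1 demethylase of the CoREST complex, had an FPKM of 21.5, 21 and 20.8 in KO, against 24.5, 21.7 and 22.9 in WT. The Kdm1a libraries did not overlap, but the difference of -0.12 did not pass (adjusted p = 0.21).

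Deacetylases have shorter transcripts, with a median length of 2781 nt. Of 17 tested, 2 were lower and 4 were higher in KO as deposited (median log2 fold change 0.05), against 25.8% and 18.3% of all tested genes. The share of higher deacetylases was thus near the background. With the trend removed 1 was lower and 1 was higher, against 9.42% and 9.28%. Hdac3, the catalytic subunit of the NCoR and SMRT corepressor complexes, had an FPKM of 33.3, 31.5 and 36.1 in KO, against 26.5, 26.5 and 25.1 in WT. Its mean was 1.29-fold higher in KO (log2 fold change 0.36, SE 0.07, adjusted p = 0.00426), and it was the higher member that kept its call with each library left out in turn. The Hdac3 value was 0.19 with the trend removed and missed the threshold (adjusted p = 0.0664). Hdac1, shared by the NuRD, Sin3 and CoREST complexes, had an FPKM of 63.4, 61.2 and 61.3 in KO, against 57, 52.2 and 53.5 in WT (log2 fold change 0.19, adjusted p = 0.0414; 0.02, adjusted p = 0.822 with the trend removed). Its partner Hdac2 had 31.3, 34.9 and 31.7 in KO, against 35.5, 30 and 33.6 in WT (adjusted p = 0.883), with overlapping groups. The Hdac1 call failed without KO replicate 2, KO replicate 3, KO replicate 4, WT replicate 3 or WT replicate 4 (adjusted p = 0.125, 0.0761, 0.076, 0.107 and 0.134).

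Class IIa deacetylases are signal-regulated corepressors that shuttle between nucleus and cytoplasm. Hdac7, known for a role in vessel integrity, had an FPKM of 27.5, 25.4 and 28 in KO, against 25.2, 30.9 and 28.1 in WT, and Hdac5 had 46.2, 41.2 and 42.7 in KO, against 39, 48.3 and 44 in WT. The groups overlapped for both and neither difference passed (adjusted p = 0.654 and 0.944). Hdac7 was called higher with the trend removed (0.40, adjusted p = 0.023); the length behind its FPKM was 15487 nt, 1 length per gene that need not be the isoform of these cells. That call failed without KO replicate 2, KO replicate 4, WT replicate 2 or WT replicate 4 (adjusted p = 0.0637, 0.0854, 0.0583 and 0.084). Hdac9 had an FPKM of 0.726, 0.797 and 0.731 in KO, against 1.18, 1.09 and 1.23 in WT (log2 fold change -0.31, adjusted p = 0.0295). Hdac9, like Kmt2c, was tested through its WT level only. Its call failed without KO replicate 2, KO replicate 3, KO replicate 4, WT replicate 2 or WT replicate 4 (adjusted p = 0.0838, 0.0571, 0.0727, 0.0603 and 0.0937), and its value was 0.18 with the trend removed (adjusted p = 0.193).

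Sirtuins are deacetylases that consume NAD. Sirt1, the nuclear member known for a role in angiogenesis, had an FPKM of 3.55, 3.27 and 3.38 in KO, against 5.34, 4.66 and 5.77 in WT. Its mean was 1.54-fold lower in KO (log2 fold change -0.50, SE 0.10, adjusted p = 0.00302), and with a transcript of 3910 nt it kept most of that difference with the trend removed (-0.39, adjusted p = 0.015). Sirt2, a mainly cytoplasmic member, had an FPKM of 44.1, 42.4 and 44.1 in KO, against 39, 35.9 and 36.1 in WT (log2 fold change 0.23, adjusted p = 0.0202). The mitochondrial Sirt3 had 5.32, 5.9 and 4.65 in KO, against 4.16, 4.23 and 3.98 in WT (log2 fold change 0.29, adjusted p = 0.0362). Sirt2 and Sirt3 were higher in every KO library than in any WT library, a condition in a part of the naming rule that both met. Both missed the threshold with the trend removed (0.17, adjusted p = 0.0538, and 0.05, adjusted p = 0.783). The Sirt2 call failed without KO replicate 2, KO replicate 4, WT replicate 3 or WT replicate 4 (adjusted p = 0.0644, 0.056, 0.0539 and 0.0856), and the Sirt3 call without KO replicate 2, KO replicate 3, WT replicate 2, WT replicate 3 or WT replicate 4 (adjusted p = 0.0895, 0.127, 0.0683, 0.0578 and 0.112). Sirt6, a chromatin-bound member, had a difference of 0.18 that did not pass (adjusted p = 0.12).

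Of 8 tested CHD remodellers, 7 were lower in KO (median log2 fold change -0.56), against 25.8% of all tested genes. With the trend removed 3 were lower, against 9.42%. Chd2, a chromodomain ATPase, had an FPKM of 3.41, 2.89 and 2.91 in KO, against 6.06, 5.82 and 7.17 in WT, a 2.07-fold lower mean (log2 fold change -0.85, SE 0.10, adjusted p = 0.000527; -0.46, adjusted p = 0.0116 with the trend removed). Chd7, the enhancer-bound remodeller mutated in CHARGE syndrome, had an FPKM of 2.02, 2.33 and 1.88 in KO, against 4.55, 3.67 and 4.6 in WT. Chd6, of the same subfamily, had 2.42, 2.39 and 2.37 in KO, against 4.38, 4.6 and 4.78 in WT. Chd6 and Chd7 passed in both fits (-0.29, adjusted p = 0.0367, and -0.34, adjusted p = 0.0339 with the trend removed). Chd4, the ATPase of the NuRD complex and the most abundant CHD gene here, had an FPKM of 27, 26.5 and 24 in KO, against 36.6, 38.1 and 36.1 in WT. The Chd4 groups were apart, which is also a condition in part of the rule by which genes were named. Its log2 fold change was -0.50 (adjusted p = 0.00084), and -0.11 with the trend removed (adjusted p = 0.257).

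Of the 16 tested genes in the group of SWI/SNF, ISWI and related remodellers, 10 were lower and 1 was higher in KO (median log2 fold change -0.32). The group was set by symbol and includes Smarcal1, taken up below, so a member need not be a subunit of these complexes. The shares of all tested genes were 25.8% and 18.3%. With the trend removed 1 was lower and 1 was higher (median 0.00), near the shares of all tested genes (9.42% and 9.28%). Long and short subunits of the same SWI/SNF complex lay on opposite sides of 0. The ATPase Smarca4 (9113 nt) had an FPKM of 18.1, 18.3 and 14.8 in KO, against 23.6, 21.8 and 22.6 in WT (log2 fold change -0.39, adjusted p = 0.00698). The alternative ATPase Smarca2 (10399 nt) had 9.24, 8.81 and 8.48 in KO, against 14.2, 13.7 and 12.8 in WT (-0.57, adjusted p = 0.000754). Arid1a, the large DNA-binding subunit (11231 nt), had 6.77, 7.79 and 6.41 in KO, against 11.7, 12.3 and 13.4 in WT (-0.76, adjusted p = 0.000532). The core subunit Smarcb1 (1657 nt) was instead higher, with an FPKM of 52.5, 53.1 and 49.9 in KO, against 46.9, 40.9 and 44.2 in WT (0.23, adjusted p = 0.0264). Its call failed without KO replicate 2, KO replicate 3, WT replicate 3 or WT replicate 4 (adjusted p = 0.076, 0.0733, 0.0798 and 0.0762). Smarca4 (0.00, adjusted p = 0.992), Smarca2 (-0.15, adjusted p = 0.211) and Smarcb1 (0.00, adjusted p = 0.974) did not pass with the trend removed, and Arid1a did (-0.33, adjusted p = 0.0238). The accessory subunits Smarcd1 and Smarcd3, the second known for its role in heart development, had differences of 0.06 and 0.05 that did not pass (adjusted p = 0.534 and 0.757).

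Smarcal1, an annealing helicase of stalled replication forks, showed the reverse of this pattern and was named after its values were seen. Its transcript is long (8491 nt), yet it had an FPKM of 3.63, 3.76 and 3.84 in KO, against 3.86, 3.58 and 3.42 in WT (adjusted p = 0.748). Relative to genes of its length it was higher in KO (0.42, adjusted p = 0.0151), a call that failed without KO replicate 4 or WT replicate 4 (adjusted p = 0.0524 and 0.0672). Chd1, a remodeller with a length of 8491 nt as well, had 3.46, 3.8 and 4 in KO, against 6.44, 5.45 and 6.51 in WT (log2 fold change -0.58, adjusted p = 0.00151; -0.20, adjusted p = 0.154 with the trend removed).

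Among the genes with a Brd symbol, 4 of 8 tested were lower in KO (median log2 fold change -0.24), against 25.8% of all tested genes. The 8 include Brd3os, which matched by name only and was not called in either fit. With the trend removed 1 was lower and 1 was higher, near the shares of all tested genes (9.42% and 9.28%). Brd2, a BET protein that binds acetylated histones, had an FPKM of 54.9, 49 and 51.8 in KO, against 57, 58.8 and 60.1 in WT, and did not pass (-0.17, adjusted p = 0.0649). Brd1, a scaffold of acetyltransferase complexes, and Brd9, a reader of the non-canonical SWI/SNF complex, have lengths of 5224 and 5144 nt. Brd1 had 9.43, 9.44 and 9.36 in KO, against 14.2, 13.1 and 14.3 in WT (-0.51, adjusted p = 0.000872; -0.29, adjusted p = 0.0164 with the trend removed). Brd9, named after its values were seen, had 13.3, 12.5 and 12.5 in KO, against 12.2, 13 and 12.5 in WT (0.02, adjusted p = 0.862; 0.23, adjusted p = 0.0483 with the trend removed). The difference between Brd1 and Brd9 was not tested. After removal of the trend, the Brd1 call failed without KO replicate 2 or WT replicate 4 (adjusted p = 0.0539 and 0.0718), and the Brd9 call without KO replicate 2, KO replicate 3, KO replicate 4, WT replicate 2 or WT replicate 4 (adjusted p = 0.127, 0.0705, 0.118, 0.117 and 0.161).

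Of the 4 other ARID genes tested, 3 were lower in KO (median log2 fold change -0.60), against 25.8% of all tested genes. Arid4b, a subunit of the Sin3 deacetylase complex, had an FPKM of 2.38, 2.81 and 1.83 in KO, against 5.21, 4.7 and 4.83 in WT. Its mean was 2.1-fold lower (log2 fold change -0.83, SE 0.12, adjusted p = 0.000805), and it passed with the trend removed (-0.52, adjusted p = 0.013). Arid4a, its paralog in the same complex, had 3.48, 3.04 and 3.74 in KO, against 6.24, 5.45 and 6.07 in WT (-0.65, adjusted p = 0.000983; -0.31, adjusted p = 0.0512 with the trend removed).

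Set side by side, the classes differed in their counts before the trend was removed. Writers had 22 lower and 2 higher of 34 (median log2 fold change -0.39), erasers 15 lower and 4 higher of 36 (-0.20), remodellers 17 lower and 1 higher of 24 (-0.39), and readers and ARID factors 7 lower of 12 (-0.39). The shares of all tested genes were 25.8% lower and 18.3% higher. The lower writers include Kmt2c and the lower erasers Hdac9, which entered the test through WT alone. The median length was 6880.5 nt for writers, 5356 nt for erasers, 8517.5 nt for remodellers and 5817 nt for readers and ARID factors. Erasers, with the shortest transcripts, had the smallest median change. The medians of the other classes were alike (-0.39) and did not follow their lengths. After removal of the trend the medians were -0.08 for writers, -0.01 for erasers, -0.08 for remodellers and -0.10 for readers and ARID factors. The counts then were 7 lower (Kmt2c included) and 1 higher writers, 5 lower and 1 higher erasers, 4 lower and 1 higher remodellers, and 2 lower and 1 higher readers and ARID factors. Of all tested genes, 9.42% were then lower and 9.28% higher. No test of a difference between classes was made, since members are not replicates.

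By library, the median deviation of the writers from their gene means was -0.17, -0.20 and -0.28 on the log2 scale in KO replicates 2, 3 and 4, and 0.20, 0.19 and 0.24 in WT replicates 2, 3 and 4. That of the erasers was -0.05, -0.11 and -0.15 in KO, and 0.13, 0.09 and 0.13 in WT. KO lay below WT in each of the 4 classes. After removal the writers still lay at -0.05, -0.05 and -0.06 in KO and at 0.04, 0.08 and 0.05 in WT, while the eraser libraries overlapped, at 0.02, -0.03 and -0.07 in KO and -0.01, 0.04 and 0.03 in WT. Summed over each class, writers had an FPKM of 283.2 to 292.7 in KO and of 346.2 to 359.8 in WT, and erasers 419.1 to 434.2 in KO and 438.2 to 449.2 in WT.

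**Figure D3:**
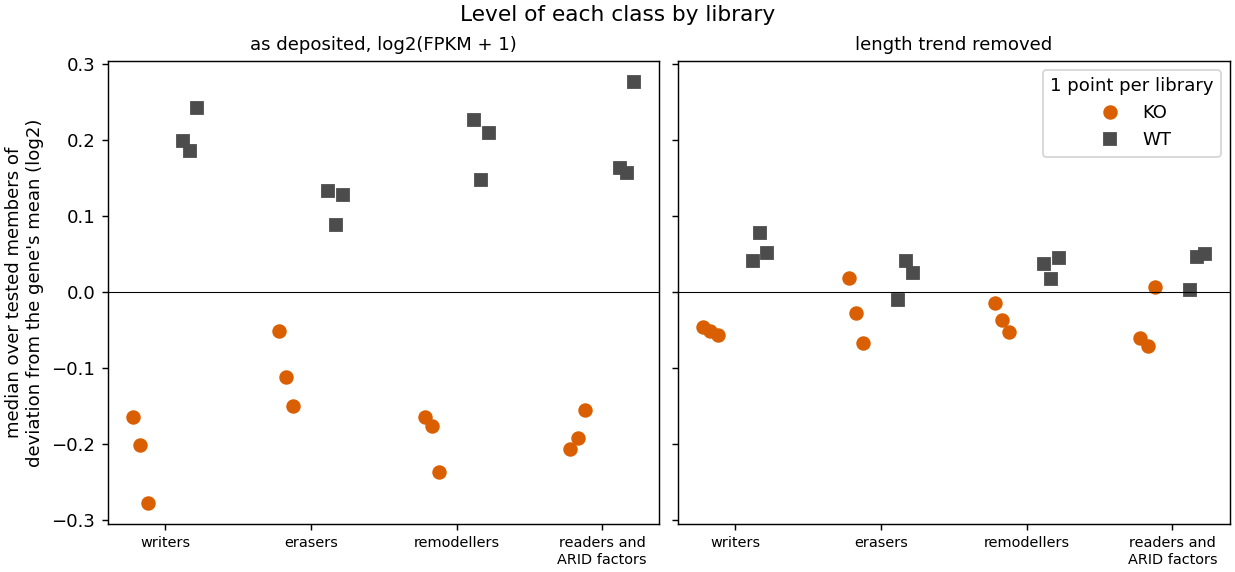
Median over the tested members of each class of the log2 deviation from each gene's mean, 1 point per library, KO left of WT, for the values as deposited (left panel) and with the length trend removed (right panel). In the left panel KO lies below WT in all 4 classes; in the right panel the points draw together and those of erasers and of readers and ARID factors overlap.

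All tested genes were split into 5 bins of equal size by length. The longest bin (6233 to 56354 nt) held 54 of the 106 members, or 50.9%. In it, 49 of the 54 were lower in KO, against 66.2% of all genes there. The 49 include Kmt2c among writers and Hdac9 among erasers, which entered the test through WT alone, so their calls are no support. The median log2 fold change of the 54 was -0.57, against -0.38 for all genes in the bin. The lower members of this bin were 18 of 19 writers, 12 of 15 erasers, 14 of 15 remodellers and 5 of 5 readers and ARID factors. The members within the bin were also longer than its other genes, with a median of 9646 nt against 8354 nt for all of them. Higher calls were rare among all genes of the longest bin (1.16%). In the fourth bin (4129 to 6229 nt), 10 of 24 members were lower, against 40.8% of all genes (2.82% were higher), a share near the background. Of the 15 members in the middle bin (2867 to 4128 nt), 2 were lower and Kat5 was higher, against 16.1% and 7.54% of all genes. Of the 9 in the next shorter bin, 3 were higher (Hdac1, Hdac3 and Sirt2), against 20.4% of all genes higher and 4.4% lower. In the shortest bin (105 to 1791 nt), 3 of 4 members were higher (Kat8, Sirt3 and Smarcb1), against 59.8% of all genes higher and 1.57% lower.

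With the trend removed, the longest bin held 16 of the 18 lower members and 2 of the 4 higher ones. The 16 are read against 15% of all genes in that bin called lower, and the 2 against 15.2% called higher. Kmt2c, which entered the test through WT alone, is among the 16, and its call is no support. The middle bin held 1 lower member (Sirt1) and 1 higher (Kat5), against 8.19% and 8.47% of all genes, and the fourth bin 1 lower (Brd1) and 1 higher (Brd9), against 11.1% and 10.8%. These 22 calls were all in the 3 longer bins; in the shorter ones 6.8% and 6.01% of all genes were lower and 6.29% and 5.64% higher. In the longest bin, the members' median was -0.15, against 0.00 for all its genes. By class, the lower calls there were 7 of 19 writers (Kmt2c included), 4 of 15 erasers, 4 of 15 remodellers and 1 of 5 readers and ARID factors. Length and fold change still ran together among the members after removal (Spearman's rho -0.39 over 106 genes, against 0.00 over all tested genes), most in remodellers (-0.71 over 24 genes) and least in erasers (-0.12 over 36 genes).

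**Figure D4:**
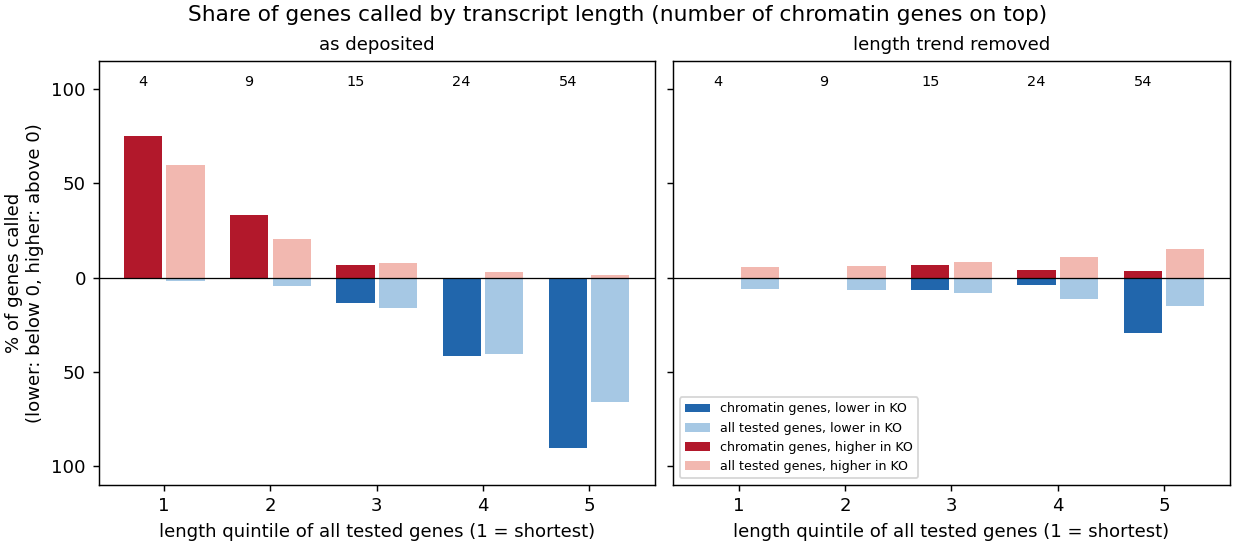
Percentage of genes called lower (below 0) or higher (above 0) in KO in 5 length bins, chromatin genes in dark and all tested genes in light bars, with the number of chromatin genes on top, for the values as deposited (left panel) and with the length trend removed (right panel). As deposited, 49 of 54 chromatin genes of the longest bin were lower, against 66.2% of all genes. With the trend removed 16 of 54 were lower, against 15%. The 49 include Kmt2c and Hdac9 and the 16 include Kmt2c, which entered the test through WT alone.

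The members lower in both fits numbered 18, or 17 without Kmt2c, which entered through WT alone. They were Ep300, Kat6a, Setd7, Setd2, Kmt2a, Kmt2c and Kmt2e among writers, Tet3, Kdm7a, Kdm5a, Kdm2a and Sirt1 among erasers, Chd2, Chd6, Chd7 and Arid1a among remodellers, and Arid4b and Brd1. When each library was left out in turn from the fit without the trend, Ep300, Kat6a, Arid4b and Tet3 kept their calls throughout, with an adjusted p of at most 0.0258, 0.0359, 0.0435 and 0.0493. Without WT replicate 4 the calls of Chd2, Kdm7a and Sirt1 were lost (adjusted p = 0.0553, 0.0601 and 0.0698). Those of Setd7 and Kdm2a failed without that library (0.0564 and 0.0649), and also without KO replicate 4 for Setd7 (0.0506) and without KO replicate 2 for Kdm2a (0.05). Arid1a, Chd6, Chd7, Kdm5a, Kmt2a, Kmt2c, Kmt2e and Setd2 (8 genes) lost the call with at least 4 of the 6 libraries left out, at an adjusted p of 0.0506 to 0.137, and WT replicate 4 was among them for each. As deposited, 49 of the 61 lower calls and 1 of the 7 higher calls (Hdac3) held with every library left out in turn.

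**Figure D5:**
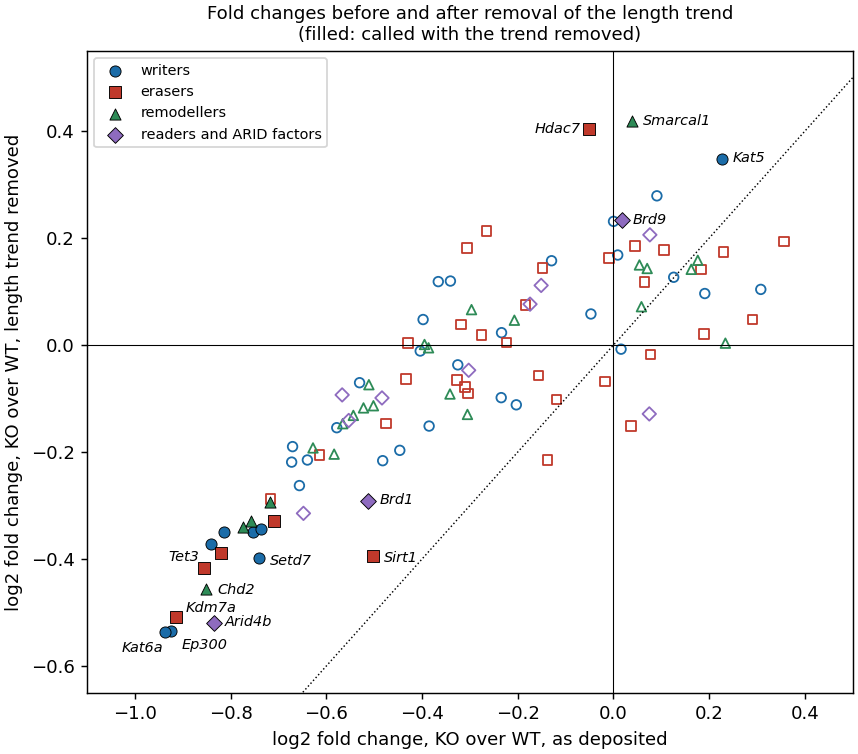
Log2 fold change (KO over WT) of the 106 tested chromatin genes as deposited (horizontal) and with the length trend removed (vertical), by class; filled symbols were called with the trend removed and the dotted line marks equal values. Most long genes lie above the line, Ep300 and Kat6a stay lowest at -0.54 on the vertical axis, and Sirt1 lies near the line.

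Paralogs share a function and often differ in length. In 21 of 29 families with at least 2 tested members the longest member had the lower log2 fold change of the longest and shortest, and in 17 of 29 with the trend removed. Ep300 was an exception, being shorter than Crebbp (8865 against 10847 nt) and the more reduced of the pair in both fits. The pair of Ezh1 and Ezh2 and the pair of Arid1a and Arid1b were exceptions as well, with the longer gene at the higher value.

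Genes that work with these enzymes were read from a list of 142 partners, of which 133 were tested. As deposited 56 were lower and 12 were higher in KO (median log2 fold change -0.18), and with the trend removed 15 were lower and 8 were higher (median -0.05). The shares of all tested genes were 25.8% lower and 18.3% higher as deposited, and 9.42% lower and 9.28% higher with the trend removed, so the second pair of counts was near the background. Other remodeller subunits had 15 lower and 3 higher of 27, partners of the acetyltransferases 14 lower and 3 higher of 25, partners of the Polycomb and COMPASS complexes 11 lower and 2 higher of 30, and deacetylase corepressors 6 lower and 4 higher of 16. With the trend removed these counts were 5 lower and 2 higher, 2 lower and 1 higher, 1 lower and 1 higher, and 2 lower and 4 higher, in the same order. The partners named next fell under no naming rule, so they do not stand for the list. Ash1l, a trithorax-group methyltransferase outside the symbol rule, had an FPKM of 2.07 ± 0.21 in KO and 5.1 ± 0.29 in WT (SD, n = 3 each; limma log2 fold change -0.99, adjusted p = 0.000318; -0.54, adjusted p = 0.00488 with the trend removed). Pbrm1, the polybromo subunit of SWI/SNF, was at 4.36 ± 0.59 in KO and 8.66 ± 0.38 in WT and passed in both fits (limma, -0.86 and -0.48). Ncor1, the corepressor that activates Hdac3, had a lower mean FPKM in KO as deposited (7.54 ± 1.21, against 13.3 ± 0.87 in WT), while that of Hdac3 was higher. Bcl7c, a small SWI/SNF accessory protein, was higher in KO at 12.1 ± 1.28, against 7.97 ± 0.79 in WT (limma, 0.54, adjusted p = 0.00249; 0.84, adjusted p = 0.00304 with the trend removed). The PRC2 subunit Suz12 was lower in both fits (limma, -0.52, adjusted p = 0.00778; -0.37, adjusted p = 0.0485), and Eed was not called in either (adjusted p = 0.778 and 0.339).

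Markers of some other cells differed between KO and WT too. Endothelial markers were abundant in all libraries (10 of 10 tested, 4 lower and 2 higher in KO), with a summed FPKM of 3797 to 4131 in KO and of 4102 to 4187 in WT. Summed markers of monocytes and macrophages were at 222.3 to 342.9 in KO and 91.1 to 223.2 in WT, with 5 of 9 higher, and neutrophil markers at 35.3 to 56.3 in KO and 14.7 to 19.2 in WT, with 3 of 3 tested higher. Lymphocyte markers were at 15.8 to 24.5 in KO and 6.99 to 9.22 in WT (2 of 2 tested higher), and markers of erythroid cells and platelets at 480.9 to 630 in KO and 292.4 to 394.9 in WT (6 of 6 higher). Fibroblast markers were at 11.7 to 14.4 in KO and 23.2 to 26 in WT (5 of 5 tested lower), mural markers at 337.1 to 525.4 in KO and 442.3 to 577.3 in WT (6 of 8 lower), and cardiomyocyte markers at 243.3 to 283.7 in KO and 177.1 to 255.4 in WT (2 higher and 1 lower of 8 tested). Over all tested genes 25.8% were lower and 18.3% higher, so 2 higher endothelial and 2 higher cardiomyocyte markers were near the background. The marker counts above are as deposited, and some lists are short in length, such as the markers of erythroid cells and platelets at a median of 609 nt. With the trend removed, 1 of 6 of those was higher, 1 of 9 monocyte and macrophage markers, 3 of 3 neutrophil markers and 2 of 2 lymphocyte markers. Lower were 4 of 10 endothelial, 4 of 5 fibroblast and 5 of 8 mural markers, and 1 of 8 cardiomyocyte markers was higher. The shares of all tested genes were then 9.42% lower and 9.28% higher, so the lists with 1 call were near the background. The neutrophil marker Csf3r had an FPKM of at least 1 in KO libraries only, and the fibroblast marker Lum in WT libraries only. Both entered the test through the group where they were higher, so their calls, counted in both fits, are no support. No marker on these lists was at 0 in all libraries. The part of other cell types in the values of the chromatin genes was not tested.

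The 15 members under the filter were Arid3a, Arid3b, Arid3c, Brd8dc, Chd5, Chd9, Dnmt3aos, Dnmt3l, Ezhip, Hdac8, Kat6b, Kdm4d, Setd4, Smarca1 and Tet1. Several are known from other tissues, such as Dnmt3l from germ cells and Chd5 from neurons. Chd9 had an FPKM of 0.476, 0.465 and 0.552 in KO, against 0.982, 0.801 and 1.03 in WT. Kat6b, the paralog of Kat6a, had 0.474, 0.476 and 0.43 in KO, against 0.743, 0.752 and 0.845 in WT. The KO libraries lay below the WT libraries for both, without a test.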

How the data were processed

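Per the labels, magnetic beads isolated the CD45-CD31+ cells, and a stranded mRNA kit was used. The authors deposited FPKM values for 20893 genes and a table of 17686 genes with mean normalized signal per group, fold change as a ratio, log2 fold change, p-value and q-value. The submitters' processing notes name DESeq2 1.22.1, featureCounts 1.6.2, HISAT2 2.1.0, fastp 0.19.3, StringTie 1.3.4d, GATK 4.0.11.0, Cufflinks and the mm10 build, and the role of each is not given in the sources used here. Coordinates are from RefSeq GRCm38.p6.

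Whole reads and the length behind each FPKM were recovered from the deposited FPKM and group means: 100.0% of values up to 1000 reads and 100.0% of lengths under 20000 nt came out whole within 0.05. Replicates of a group differed by a chi-square of 18.4 to 62.1 per gene, so none was a library deposited again.

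The 10806 genes that reached FPKM 1 in 3 or more libraries were fitted with limma 3.58.1 (R 4.3.3) on log2(FPKM + 1) with genotype as the term and an intensity trend, and adjusted by Benjamini-Hochberg over all of them. Fold changes on this scale understate the change of low genes. For the second fit a lowess curve (span 0.3) of each library's deviation from the gene mean on log2 length was subtracted. Folds are ratios of mean FPKM. Python 3.11.15 with pandas 2.3.3, numpy 2.4.6, scipy 1.17.1 and matplotlib 3.10.9 did the rest, and the scripts were tested on simulated data. Other settings were quantile normalization, median-ratio scaling, a pseudocount of 0.1, no expression filter, a filter at FPKM 5, a replicate block, each library left out, limma-voom on recovered reads, 10 length bins and, added after seeing the data, a lowess span of 0.67.

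Members and lists were chosen with earlier results of these data known. Genes were named by a rule: per subclass, up to 4 lower and 4 higher with the smallest p and no overlap between groups; those called in both fits (up to 12 per direction) or changing sign between them (up to 6); a fixed list of 35 well-known members; and the shortest and longest 3. The labels do not say whether replicates are different animals; if not, each p-value reflects technical spread among the libraries only. Kmt2b, Setd2, Chd1, Brd2, Hdac5, Chd9 and Kat6b were named after their values were seen. One member named by this rule is left out of the text.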

Additional observations from a re-analysis of the deposited data

How the results depend on the processing

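The counts of members called depended on the processing more than the directions did. With FPKM of at least 5 there were 40 lower members as deposited and 8 with the length trend removed, since 70 members were then tested. Without a filter 119 members were tested and 42 were lower with the trend removed. The shares of all genes called under the settings of this section are not given here, so its counts are not set against a background. Quantile normalization left 2 higher with the trend removed. Deviations from the group mean correlated at -0.19, -0.35 and -0.22 between same-numbered KO and WT libraries, against 0.00 to 0.20 for other pairs. Deviations from a mean of 3 libraries sum to 0, which ties these values to one another. They therefore cannot exclude a pairing or shared batch by number. With the replicate block, limma called 52 lower and 2 higher members as deposited. With the trend removed it called 5 lower and 0 higher (7 higher at an unadjusted p under 0.05). Limma-voom without the block called 5 higher with the trend removed. With each library left out in turn, 49 to 58 members were lower and 1 to 5 higher as deposited, and 4 to 14 lower and 0 to 5 higher with the trend removed, the last with 4 to 10 higher at an unadjusted p under 0.05. Median log2 fold changes as deposited stayed below 0 in every class and setting. They were -0.32 (remodellers), -0.32 (readers and ARID factors), -0.28 (writers) and -0.12 (erasers) with quantile normalization; -0.35 (remodellers) and -0.16 (erasers) with median-ratio scaling; -0.46 (remodellers) and -0.48 (writers) with a pseudocount of 0.1; -0.47, -0.45, -0.49 and -0.25 (remodellers, readers and ARID factors, writers, erasers) with limma-voom; -0.25 (readers and ARID factors) and -0.34 (writers) without a filter; and -0.12 (erasers) with FPKM of at least 5. Leaving out a library gave -0.44 to -0.33 for remodellers, -0.41 to -0.38 for readers and ARID factors, -0.41 to -0.37 for writers and -0.27 to -0.16 for erasers. With the trend removed, medians without a filter were -0.18 (remodellers), -0.14 (readers and ARID factors), -0.18 (writers) and -0.0899 (erasers); with FPKM of at least 5 they were -0.024 (remodellers), 0.0512 (readers and ARID factors, a changed sign) and -0.059 (writers). They were -0.049 (remodellers) with the pseudocount of 0.1, -0.0503 (remodellers) and -0.054 (readers and ARID factors) with limma-voom, and -0.0698 (writers) with the lowess span of 0.67; leaving out a library gave -0.0965 to -0.0485 (remodellers), -0.0998 to -0.0602 (writers), -0.1028 to -0.0816 (readers and ARID factors) and -0.0345 to 0.0084 (erasers). Removal of the length trend turned the sign of 25 tested members, 10 of them called as deposited; those named by the rule were Chd3 (0.0664), Dnmt3a (0.12), Dnmt3b (0.0233), Hdac7 (0.40), Hdac9 (0.18), Kdm5c (0.0038), Kdm6a (0.0386), Nsd3 (0.0479) and Smarca4 (0.0013), and it ended the call of 29 named members. Hdac2 turned to 0.0331 with median-ratio scaling. Single libraries left out turned the sign of genes near 0, whose values then ranged over -0.0824 to 0.0346 (Hdac2), -0.1235 to 0.0173 (Hdac7), -0.044 to 0.0793 (Kat2a) and -0.0333 to 0.1644 (Smarcd3). The causes of these changes were not tested. The planned use of annotated transcript lengths in place of those behind the FPKM was not run.

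Precision is limited by 3 libraries a group and, for members such as Hdac11 at 97 reads, by counting. Low members have fold changes compressed by the pseudocount. A single length per gene stands in for all its isoforms, and a smooth curve takes out only what genes of like length share; real differences that run with length would go with it.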

Other observations

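Gene span on the chromosome, introns included, ran with the fold changes as well. Spearman's rho between span and log2 fold change was -0.65 over the 106 tested chromatin genes and -0.55 over the 10787 tested genes with an annotated span, in both cases nearer 0 than that of transcript length (-0.80 and -0.72). Mean FPKM ran the other way, at 0.34 over the members and 0.25 over those tested genes. These are values across genes of the same 6 libraries and carry no test.

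The Y-linked demethylase Kdm5d was detected in all 6 libraries, with an FPKM of 2.85, 3.46 and 2.28 in KO replicates 2, 3 and 4, against 4.13, 3.29 and 4.06 in WT replicates 2, 3 and 4 (limma adjusted p = 0.0644). Its X-linked paralog Kdm5c had 5.75, 6.7 and 5.62 in KO, against 8.89, 7.5 and 8.99 in WT (limma log2 fold change -0.43, adjusted p = 0.00747; 0.00, adjusted p = 0.98 with the length trend removed). Near-identical stretches of such pairs can share reads, and how shared reads were counted is not given in the sources used here. Kdm5d was named after its values were seen.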
